A study of Mus musculus with 3 samples.

Results

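The comparison set the cornea of Aire knockout mice given saline against that of untreated Aire knockout mice, over the 30406 Ensembl gene IDs listed in both deposited gene lists. Each side was 1 single-nucleus library (KO_PBS and KO) from whole corneas of 5 pooled mice, which the labels place at 7 weeks of age. Both groups lack Aire, KO was untreated, and KO_PBS had received phosphate-buffered saline for 14 days per its label. The series text instead gives day 7 of treatment and 6 weeks of age, and names a 4 µM lacripep arm that was not analysed here. The series title speaks of topical lubrication. Strain, sex, the Aire allele and the route of the saline are not given in the labels. A wild-type library (WT, untreated, also 5 pooled mice at 7 weeks) supplied levels to set beside the others. UMIs, the molecule counts of droplet sequencing, were summed over all barcodes of a library and scaled to a library total of 1000000 (CPM). The log2 ratio of KO_PBS to KO was then centred on the median of the 22416 genes with at least 50 UMIs over both libraries. With 1 library a side there is no replicate check, no test and no p-value, and every interval printed is an exact 95% interval that covers counting error only.

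Aire drives the display of tissue-specific self-antigens in the thymus. Without it, self-reactive lymphocytes escape and attack the lacrimal gland and eye, and tears are lost. A dry cornea typically takes up lymphocytes and macrophages, shows an interferon response, and carries an epithelium with wound-type keratins and cornification genes. Beneath the epithelium lie its basement membrane, a collagen stroma kept by keratocytes, and a single-layered endothelium that pumps water out of the stroma.

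The KO file held 107031 barcodes with 352627863 UMIs (median 2980 per barcode), and the KO_PBS file 114357 barcodes with 178988562 UMIs (median 1432). The 2 files share 3379 barcode sequences, 3.16% of those in KO and 2.95% of those in KO_PBS. Aire itself was near the floor everywhere, with 15 UMIs in WT, 27 in KO and 68 after saline, so it does not check the labels. Xist, a transcript of the inactive X chromosome in females, was at 269 CPM in WT, 352 in KO and 476 with saline. Of 6 sex-linked genes listed, the Y-linked Ddx3y was at 0.211 CPM in WT, 0.211 in KO and 5.97 in the saline library, while Kdm5d and Eif2s3y were at 0.0234 CPM or less in every library. Mitochondrial UMIs were 0.797% in KO and 0.986% in KO_PBS. Markers of whole cornea were present in both libraries, with the corneal keratin Krt12 at 26121 CPM in WT, 13793 in KO and 6205 after saline.

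A gene was called higher or lower when its centred ratio was at least 2-fold and its interval excluded equality, with counts below 3 set to 3. This is a rule of size, not a test. Over all genes 6705 (29.9%) were higher in KO_PBS, 2902 (12.9%) lower and 12809 (57.1%) within 2-fold, and these shares are the background for every list below. The shift removed by centring was 0.63, a 1.55-fold difference of the median gene. Without it 8954 genes (39.9%) were higher and 1064 (4.75%) lower, so higher calls made up 69.8% of all calls with centring and 89.4% without. A centred ratio of -0.63 is thus an equal level in CPM, and a gene called lower just beyond -1 is within 2-fold in CPM. The CPM of both libraries or the uncentred ratio is given beside most such calls. No shift between WT and KO_PBS was measured. Statements that KO_PBS lay above or below WT, or between WT and KO, compare CPM as they stand. WT and KO lists have 32285 genes each and the KO_PBS list 31053, so such statements also cross different gene lists.

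The ratio depended on the level of a gene. Genes were split into 10 equal bins by their WT level. In the lowest bin the median uncentred ratio was 3.44, and 68.4% of the genes were called higher. It was 0.57 in the sixth bin and -0.07 in the top bin, where 1.5% were called higher and 28.4% lower. Long intergenic non-coding RNAs had a median centred ratio of 2.39, against -0.13 for protein-coding genes. The shortest transcripts by exonic length had a median of 0.70 and the longest -0.25. By the span of the gene, introns included, the direction was the reverse, with -0.39 for the shortest and 0.26 for the longest. Abundant genes therefore sit lower against the all-gene median than rare ones, and the WT level is given for most genes described. Of 402 list members within 2-fold, 63 were lower and 28 higher by 2-fold or more when centred within these bins, while 80 of 261 lower and 21 of 175 higher members came within 2-fold. Lower members went from 6 to 17 of 20 among T cell genes, from 8 to 16 of 27 among chemokines outside the CXCR3 axis and from 3 to 5 of 10 among B cell genes. They went from 9 to 5 of 20 among corneal epithelial genes, from 9 to 5 of 26 in the basement membrane list, from 7 to 3 of 15 in the EGF receptor family and from 34 to 9 of 98 among ribosomal protein genes. Stromal collagen, desmosome and proliferation genes also had fewer lower members with this centring.

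**Figure D1:**
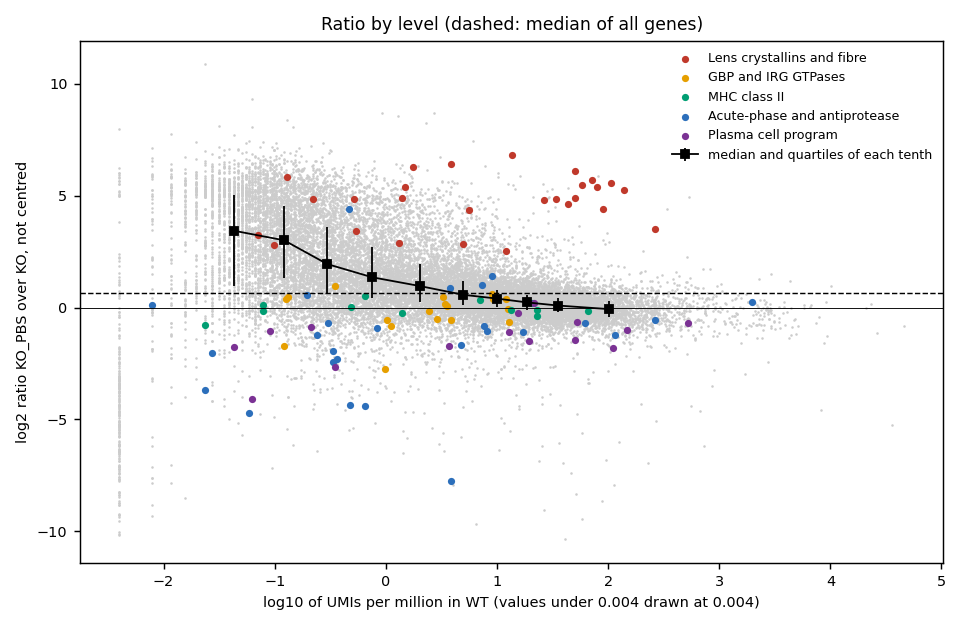
Uncentred log2 ratio of KO_PBS to KO (vertical axis) against the WT level (horizontal axis, log10 CPM) for 22416 genes in grey, with 5 gene lists in colour. Black squares and bars are the median and interquartile range of each of 10 bins of genes by WT level. The bin medians decline from 3.44 to -0.07, lens genes lie above them, plasma cell and acute-phase genes mostly below, and GTPase and MHC class II genes near the line of equal CPM.

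Sorted by their medians, the gene lists ran from -6.97 to 4.49. At the low end were immunoglobulin genes (variable kappa -6.97), followed by neutrophil (-3.11), plasma cell (-1.72), acute-phase (-1.69), cornified envelope (-1.57), proliferation (-1.35) and stromal collagen (-1.18) genes. Interferon and antigen presentation lists lay between -0.62 and -0.99, near equal CPM. Lens, retina, pigment and muscle genes lay at the high end, between 2.77 and 4.49.

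**Figure D2:**
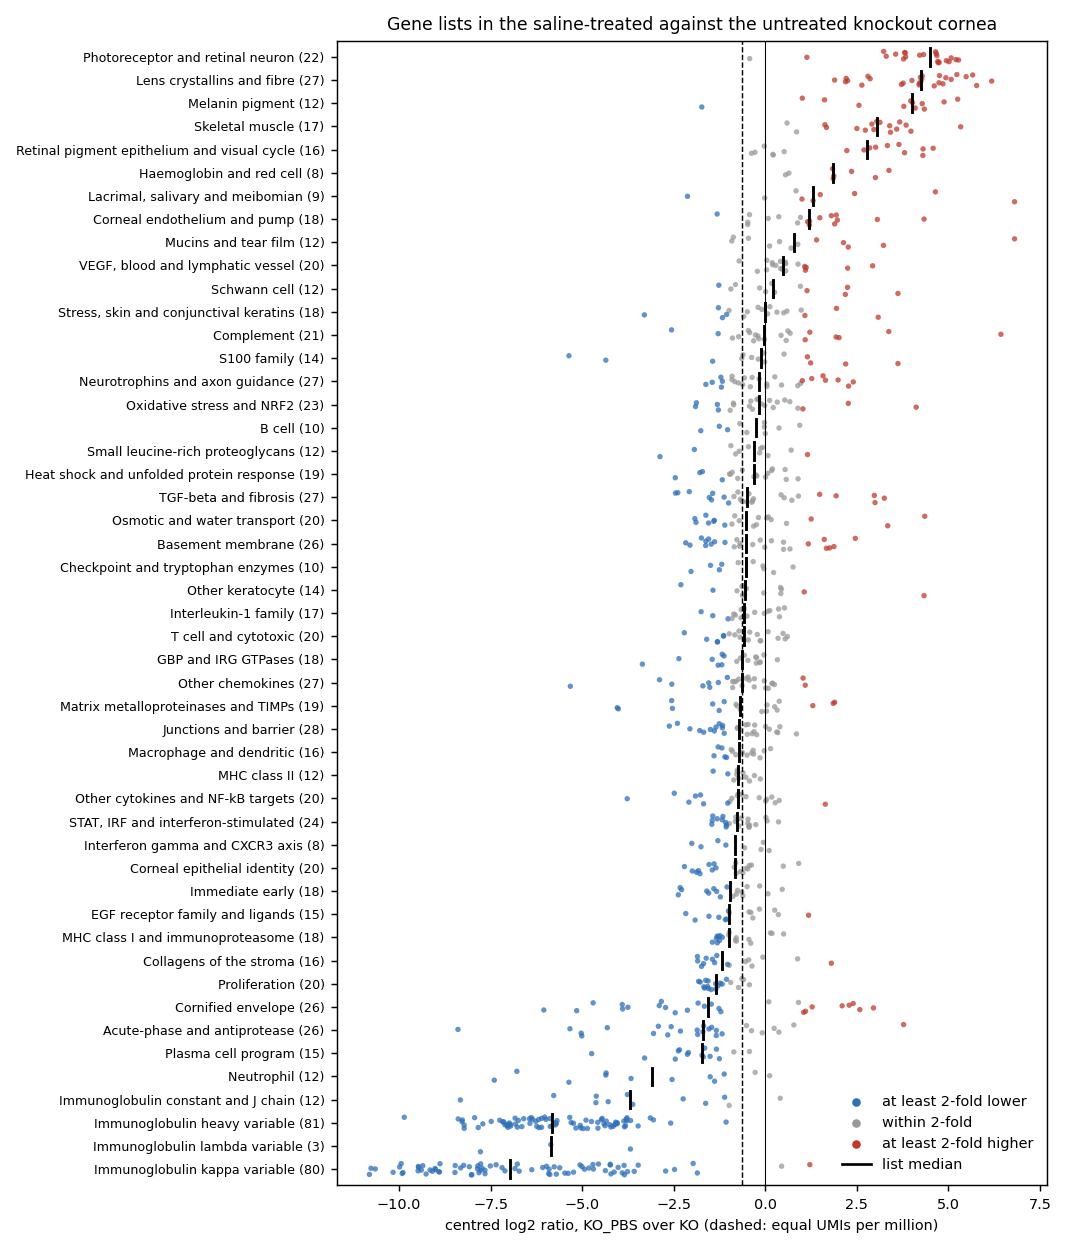
Centred log2 ratio of KO_PBS to KO (horizontal axis) for every list member with at least 50 UMIs, 1 point per gene, with the number of such genes after each list name. Black bars are list medians, the solid line is the median of all genes and the dashed line equal CPM. Immunoglobulin variable genes have medians from -6.97 to -5.82 at the foot and photoreceptor genes a median of 4.49 at the top.

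Antibody genes were lower in the saline-treated cornea. Of 13 constant-region and J chain genes, 12 reached 50 UMIs, and 10 of these were lower, none higher and 2 within 2-fold. The 4 IgG heavy chains were all lower. Ighg1, the IgG1 heavy chain, was at 0.0508 CPM in WT, 6499.7 in KO and 408 with saline, a centred log2 ratio of -4.63 (interval -4.64 to -4.61). Ighg2c was at 0.00391 CPM in WT, 497 in KO and 2.4 in the saline library, with a ratio of -8.32 (interval -8.47 to -8.19). Both were near 0 in WT and remained above it in KO_PBS. Igkc, the kappa light chain constant region, was at 1.93 CPM in WT, 12405 in KO and 981 after saline, with a ratio of -4.29 (interval -4.30 to -4.28). Jchain, which joins IgM and IgA polymers, was at 0.488 CPM in WT, 1062 in KO and 67.1 with saline, with -4.61 (interval -4.64 to -4.59). At least 1 UMI of Igkc was in 99.98% of KO barcodes and 74.8% of KO_PBS barcodes. For Ighg1 the shares were 99.8% and 45.0%. UMIs of both were thus not confined to barcodes of B-lineage nuclei in KO, and their source was not tested.

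The early isotypes differed from IgG. Ighm, the IgM heavy chain, was at 0.828 CPM in WT, 129.7 in KO and 101 in the saline library, with a ratio of -0.99 (interval -1.01 to -0.96), within 2-fold. Ighd, which marks naive B cells, was at 0.0508 CPM in WT, 7.34 in KO and 15.1 after saline, with a ratio of 0.41 (interval 0.33 to 0.49). Igha, the IgA heavy chain, was at 0.672 CPM in WT, 343 in KO and 246 with saline and was called lower at -1.11, or -0.48 uncentred. In CPM, Ighm was thus near its KO level and Ighd above it. With centring within bins of the WT level Ighm was at -1.71 and Ighd at -2.40, so their place within 2-fold depends on the scaling. The grouping by isotype was drawn after the values were seen.

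Variable genes, which encode the antigen-binding part of antibodies, were low in KO_PBS as well. Of 185 heavy variable genes 139 had a UMI in KO and 110 in KO_PBS, and all 81 that reached 50 UMIs were called lower, with a median of -5.82. Of 160 kappa variable genes 124 had a UMI in KO and 87 in KO_PBS. Of the 80 that reached 50 UMIs, 78 were lower, 1 was higher and 1 within 2-fold, with a median of -6.97. Members that reach the minimum mostly do so through their KO counts, so these counts describe and do not support a direction. In KO_PBS 37 of the 81 heavy and 26 of the 80 kappa genes had fewer than 3 UMIs and enter at 3. Summed over the genes, heavy variable genes gave 0.148 CPM in WT, 162 in KO and 3.44 after saline, and kappa variable genes 0.449, 851 and 12.6. The 3 lambda variable genes were all lower, at 179 CPM in KO and 1.42 in KO_PBS together.

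**Figure D3:**
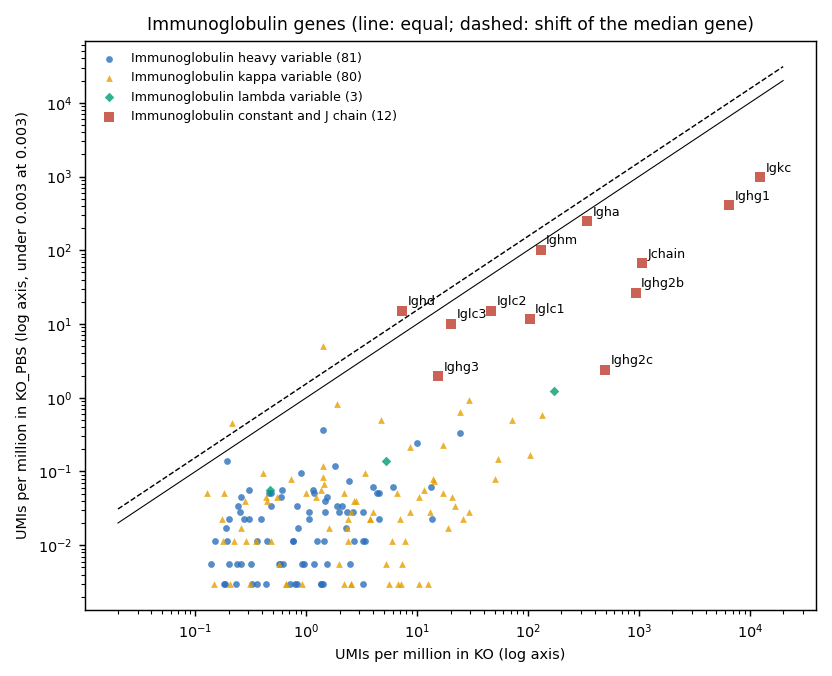
CPM in KO_PBS (vertical, log axis) against CPM in KO (horizontal, log axis) for immunoglobulin genes with at least 50 UMIs, with constant-region genes labelled. The solid line is an equal level and the dashed line the shift of the median gene. IgG heavy chains, Igkc and Jchain lie far below both lines, Ighm and Igha just below the solid line, and Ighd above the dashed one.

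Genes of antibody-secreting plasma cells followed the constant regions. Of 15 listed, 13 were lower, none higher and 2 within 2-fold, with a median of -1.72. Mzb1, an endoplasmic reticulum protein of B and plasma cells, was at 0.0625 CPM in WT, 137 in KO and 7.94 in the saline library, with a ratio of -4.74 (interval -4.82 to -4.66). Derl3, part of the degradation machinery of that compartment, was at 0.348 CPM in WT, 9.38 in KO and 1.48 after saline, with -3.30. Xbp1, the transcription factor of secretory cells, was at 110.0 CPM in WT, 237 in KO and 66.8 with saline, with -2.46. Prdm1, the plasma cell transcription factor that the epithelium also expresses, was within 2-fold at -0.86, and so was Txndc5 at -0.43.

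Genes of B cells before that stage were nearer their KO level. Of 10 listed, 3 were lower, none higher and 7 within 2-fold, and the median was -0.26 centred but 0.37 uncentred, so its sign follows the scaling. Cd79a, a chain of the B cell receptor complex, was lower at 0.0899 CPM in WT, 35.3 in KO and 16.1 in the saline library (-1.76). Pax5, a transcription factor of B cells, was at 6.55 CPM in KO and 13.2 in KO_PBS. Fcer2a, the low-affinity IgE receptor of mature B cells, was at 0.137 CPM in WT, 2.91 in KO and 8.63 after saline. Centred within bins of the WT level, Pax5 was at -0.94 and Fcer2a at -1.44, so their direction depends on the scaling. In these summed libraries fewer cells of a type and less RNA per cell cannot be told apart.

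Neutrophil granule genes were lower too. Of 12 markers 10 were lower, none higher and 2 within 2-fold, with a median of -3.11, and the sum of the list was 19.9 CPM in WT, 737 in KO and 95.7 after saline. S100a8 and S100a9, which form the alarmin calprotectin, gave most of that sum in KO. S100a8 was at 2.2 CPM in WT, 218 in KO and 8.19 with saline, with a ratio of -5.36 (interval -5.44 to -5.29). S100a9 was at 5.28 CPM in WT, 429.5 in KO and 32.5 in the saline library, with -4.35 (interval -4.39 to -4.32). Elane, which encodes neutrophil elastase, was at 0 CPM in WT, 7.36 in KO and 0.0675 after saline, and Ngp, a granule protein, at 0.145 CPM in WT, 22.4 in KO and 0.315 with saline. Elane and Ly6g had under 50 UMIs in KO_PBS and reached the minimum through KO, so their calls describe and do not support a direction. Cxcr2, Retnlg and Mmp8 were called lower but were within 2-fold in CPM, at -0.87, -0.75 and -0.49 uncentred. The G-CSF receptor gene Csf3r was within 2-fold at 7.54 CPM in KO and 9.63 in KO_PBS, and so was Ltf, lactoferrin, which glands also make. Cxcl1, Cxcl3 and Cxcl5, chemokines that attract neutrophils, were each lower, at -1.28 (-0.65 uncentred), -2.89 and -2.55, while Cxcl2 was within 2-fold at -0.30. Centred within bins of the WT level, Csf3r was at -1.59, Cxcl2 at -1.03 and Ltf at 0.35. The place of Csf3r and Cxcl2 within 2-fold thus depends on the scaling.

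Acute-phase proteins and protease inhibitors had 19 of 26 members lower, 1 higher and 6 within 2-fold, with a median of -1.69. Slpi, the secretory leukocyte protease inhibitor, was at 3.88 CPM in WT, 3933 in KO and 18.1 in the saline library, with a ratio of -8.39 (interval -8.44 to -8.34). At least 1 UMI of it was in 97.2% of the barcodes in KO and in 2.73% in KO_PBS. Saa3, a serum amyloid made by inflamed tissue, was at 0.653 CPM in WT, 1228 in KO and 58.4 after saline, with -5.03 (interval -5.05 to -5.00), and Saa1 and Saa2 were lower to a like extent (-5.01 and -5.33). Lcn2, which binds bacterial siderophores, was at 8.06 CPM in WT, 85.7 in KO and 41.3 with saline, with -1.68. The interferon-responsive Serpina3 cluster was mixed. Serpina3g was at 0.195 CPM in WT, 29.3 in KO and 42.8 in the saline library, within 2-fold. Serpina3n was at 3.76 CPM in WT, 70.4 in KO and 129 after saline, also within 2-fold. Serpina3f was at -0.51 and Serpina3i at -1.86. Centred within bins of the WT level, Serpina3g was at -1.40, Serpina3f at -3.32, Serpina3i at -3.17 and Serpina3n at 0.30. Serpinb3b was the higher member, at 0.188 CPM in KO and 3.98 in KO_PBS.

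**Figure D4:**
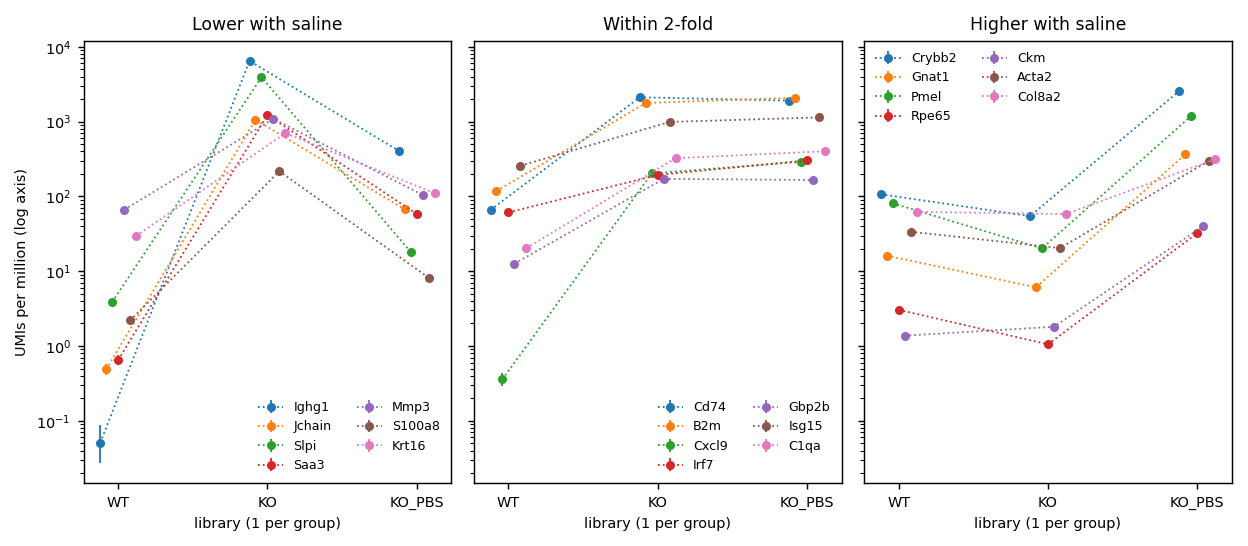
CPM (vertical, log axis) of 21 genes in the WT, KO and KO_PBS libraries, 1 library each, with exact 95% Poisson bars that cover counting error only and are mostly smaller than the points. The genes were chosen after their values were seen. The left panel holds genes lower in KO_PBS than in KO, each still above WT, the middle panel genes within 2-fold, and the right panel genes higher in KO_PBS than in either other library.

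Matrix metalloproteinases cut collagen and other matrix, and TIMPs inhibit them. Of 21 listed, 20 were matched and 19 reached the minimum, of which 7 were lower, 3 higher and 9 within 2-fold. Mmp3, stromelysin, was at 66.2 CPM in WT, 1092 in KO and 105 with saline, with a ratio of -4.01 (interval -4.03 to -3.99). Mmp12, the macrophage elastase, was at 0.395 CPM in WT, 34.4 in KO and 3.23 in the saline library, with -4.04 (interval -4.17 to -3.92), and the collagenase Mmp13 at 0.0781 CPM in WT, 8.76 in KO and 2.31 after saline, with -2.56. The gelatinase Mmp9, known for its rise in dry eye tears, was low in both libraries and within 2-fold, at 1.87 CPM in KO and 1.7 in KO_PBS. Its ratio of -0.77 became -3.15 when centred within bins of the WT level. The inhibitors went different ways. Timp1, which inflammation induces, was lower at 2.01 CPM in WT, 66 in KO and 17.6 with saline (-2.54), while Timp3, which binds the matrix, was higher at 68.3 CPM in WT, 122 in KO and 465 in the saline library (1.30).

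Cornification genes split by family. Of 34 envelope genes 26 reached the minimum, with 16 lower, 8 higher and 2 within 2-fold. The share higher, 30.8%, was near the 29.9% over all genes, while the share lower was 61.5% against 12.9%. All 8 measured small proline-rich (SPRR) genes were lower, with a median of -3.82. Sprr1a was at 3.71 CPM in WT, 139.7 in KO and 39.3 after saline, with a ratio of -2.46 (interval -2.50 to -2.42), and Sprr2d at 0.0352 CPM in WT, 24.7 in KO and 1.47 with saline, with -4.70 (interval -4.88 to -4.52). All 5 measured late cornified envelope 3 (LCE3) genes were higher, with a median of 2.40, though Lce3c and Lce3e turned to -0.27 and -0.088 when centred within bins of the WT level. Lce3a was at 90.4 CPM in WT, 38.8 in KO and 317 in the saline library, with 2.40 (interval 2.37 to 2.43), and Lce3b at 2.04 CPM in WT, 1.02 in KO and 12.2 after saline, with 2.95. SPRR genes named here were above both other libraries in KO, whereas LCE3 genes other than Lce3c were lower in KO than in WT and above WT in KO_PBS. Flg, filaggrin, was at 15.8 CPM in WT, 10.8 in KO and 0.472 with saline, with -5.15, and Cnfn, cornifelin, at 24.3 CPM in WT, 78.2 in KO and 259.7 in the saline library, with 1.10. These family groups were drawn after the values were seen.

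The upstream sequence of Mmp3, Mmp13 and Sprr1a is shown because these lower genes share a motif of AP-1, the dimer of Fos and Jun proteins. Each window holds the 250 bases before the RefSeq start in GRCm38.p6, and the capitals mark the motif TGANTCA, searched on both strands. The windows are chr9:7445572-7445821 on the plus strand for Mmp3, chr9:7272264-7272513 on the plus strand for Mmp13 and chr3:92485882-92486131 on the minus strand for Sprr1a.
Mmp3: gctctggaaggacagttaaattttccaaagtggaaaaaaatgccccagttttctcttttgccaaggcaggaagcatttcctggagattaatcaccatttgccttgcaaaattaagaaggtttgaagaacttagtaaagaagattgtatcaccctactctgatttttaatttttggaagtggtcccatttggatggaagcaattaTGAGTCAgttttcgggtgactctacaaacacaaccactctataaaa
Mmp13: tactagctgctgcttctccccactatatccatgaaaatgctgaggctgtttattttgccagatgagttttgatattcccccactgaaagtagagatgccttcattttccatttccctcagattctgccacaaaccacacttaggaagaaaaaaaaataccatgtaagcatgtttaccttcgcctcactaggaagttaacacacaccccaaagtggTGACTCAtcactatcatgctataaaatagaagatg
Sprr1a: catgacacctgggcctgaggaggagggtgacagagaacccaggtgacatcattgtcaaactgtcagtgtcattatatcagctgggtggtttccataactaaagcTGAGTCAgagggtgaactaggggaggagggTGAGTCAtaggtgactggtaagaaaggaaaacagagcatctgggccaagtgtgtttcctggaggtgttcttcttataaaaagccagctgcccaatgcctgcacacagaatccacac
The match begins 46 bases before the start in Mmp3 and 35 before it in Mmp13, while Sprr1a holds 2, at 146 and 116. The motif was in 14 of 33 cornified envelope windows and 5 of 16 metalloproteinase and TIMP windows, against 6.48% of 19621 promoter windows of that length. It was also in 5 of 20 windows of the interferon-stimulated list, 2 of 11 GTPase and 4 of 24 lens windows, lists whose medians lay near equal CPM or above it. A match is a description of letters and shows neither binding nor a cause.

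Immediate early genes, which encode AP-1 and other rapidly induced factors, had 9 of 18 members lower, none higher and 9 within 2-fold, with a median of -0.97 (-0.33 uncentred). Atf3 was at 3.88 CPM in WT, 40.8 in KO and 12.2 after saline (-2.38) and Fosb at 1.03 CPM in WT, 15.3 in KO and 4.87 with saline (-2.29), and both lay between WT and KO in KO_PBS. Fos itself was lower at -1.23 (-0.60 uncentred), Jun at -1.33 (-0.70 uncentred) and Egr1 at -1.54 (-0.91 uncentred). Junb was at 357 CPM in WT, 311 in KO and 314 in the saline library and Fosl1 at 0.281 CPM in WT, 6.44 in KO and 5.76 after saline, both within 2-fold. Centred within bins of the WT level, Junb was at 0.09 and Fosl1 at -2.11.

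Of 4 wound-type keratins 3 were lower. Krt16, a keratin of stressed and hyperproliferative epithelium, was at 29.7 CPM in WT, 704 in KO and 110.5 with saline, with a ratio of -3.30 (interval -3.32 to -3.28). Its partner Krt6a was at 1447 CPM in WT, 1710.0 in KO and 1176 in the saline library, with -1.17, Krt17 was lower at -1.28 (-0.65 uncentred), and Krt6b was just within 2-fold at -0.99. Centred within bins of the WT level, Krt16 was at -2.76 and Krt6b at -0.29. Krt6a (-0.47) and Krt17 (-0.58) then came within 2-fold. Keratins of simple epithelia lay on the other side. Krt18 was at 27.8 CPM in WT, 16.8 in KO and 100.2 after saline (1.94) and Krt8 at 50 CPM in WT, 24.7 in KO and 80.8 with saline (1.08), while Krt7 and Krt19 were within 2-fold. Over the 18 measured stress, skin and conjunctival keratins 3 were higher, 4 lower and 11 within 2-fold.

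Basal epithelial genes had lower levels in KO_PBS. Of 20 corneal epithelial genes 9 were lower, none higher and 11 within 2-fold, with a median of -0.83 (-0.20 uncentred), and their sum was 56005 CPM in WT, 39213 in KO and 26846 after saline. The basal keratins Krt5 and Krt14 were at 8829 CPM in WT, 6456 in KO and 2164 in the saline library (-2.21, interval -2.21 to -2.20) and at 609 CPM in WT, 1854 in KO and 721 after saline (-1.99). Trp63, the transcription factor of basal and stem cells, was at 88.4 CPM in WT, 215 in KO and 93.9 with saline, with -1.83. Krt12, the keratin of the differentiated cornea, was lower in KO than in WT and lower again in KO_PBS, with -1.78 (interval -1.79 to -1.78). Of the transcription factors of this epithelium, Pax6 and Elf3 were within 2-fold (-0.43 and -0.68), as were the soluble enzymes Aldh3a1 (-0.52) and Tkt (-0.61). The factors Klf4 and Ehf were lower at -1.45 and -1.54, or -0.75 and -0.84 when centred within bins of the WT level. Aqp5, the epithelial water channel, was at 9303 CPM in WT, 4640.2 in KO and 1895 in the saline library, with -1.92 (interval -1.93 to -1.92).

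Desmosomes rivet epithelial cells to each other, and 7 of their 8 genes were lower, with a median of -1.74. Dsg3 was at 104 CPM in WT, 274 in KO and 68.9 after saline (-2.62), Dsc3 at 331 CPM in WT, 454 in KO and 133 with saline (-2.40) and Dsp, desmoplakin, at 603 CPM in WT, 1004 in KO and 373 in the saline library (-2.06). Centred within bins of the WT level, these were at -1.92, -1.70 and -1.36. Dsg2 (-0.58), Jup (-0.47) and Pkp1 (-0.98) then came within 2-fold. Tight junction genes, which seal the surface layer, were within 2-fold in 11 of 14 cases, with 3 lower, none higher and a median of -0.51 that was 0.12 uncentred. The claudin genes Cldn4 and Cldn7 were lower at -1.39 and -1.26 (-0.76 and -0.63 uncentred), and Marveld2 was just past the limit at -1.17. Tjp1 was at 115 CPM in KO and 152 in KO_PBS, and Ocln at 13.7 and 14.6. Of all 28 junction genes 12 were lower, none higher and 16 within 2-fold.

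Proliferation genes were lower in 15 of 20 cases, with none higher and 5 within 2-fold, and their median was -1.35 (-0.72 uncentred). Mki67, present only in cycling cells, was at 18.9 CPM in WT, 55.4 in KO and 30.8 after saline, with a ratio of -1.48 (interval -1.52 to -1.43). Pcna, the replication clamp, was at 48.8 CPM in WT, 82.5 in KO and 39.9 with saline, with -1.68, and Mcm6 of the replicative helicase at 18.7 CPM in WT, 35.4 in KO and 15.5 in the saline library, with -1.82. Cdk1 was within 2-fold at -0.64. Centred within bins of the WT level, Mki67 was at -1.08, Pcna at -1.14 and Mcm6 at -1.42. Mcm3 (-0.78), Rrm2 (-0.89), Tpx2 (-0.83), Hmmr (-0.96) and Stmn1 (-0.96) then came within 2-fold. Several members, Pcna, Stmn1 and Tyms among them, were below their WT CPM in KO_PBS. The growth factor receptor gene Egfr was lower in the same comparison, at 143 CPM in WT, 228 in KO and 93.6 after saline (-1.92), with 7 of 15 genes of its family lower, 1 higher and 7 within 2-fold.

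Basement membrane genes went different ways. Over the 26 genes 6 were higher, 9 lower and 11 within 2-fold, and the median of -0.52 became 0.11 uncentred. Hemidesmosome and anchoring genes, which tie basal cells to the stroma, were lower in 8 of 9 cases, with a median of -1.62, and Dst, which encodes the plakin BPAG1, was within 2-fold at -0.78 (-0.15 uncentred). Lama3, a chain of laminin-332, was at 153 CPM in WT, 239 in KO and 82 with saline (-2.17, interval -2.20 to -2.15), the integrin Itga6 at 72.1 CPM in WT, 210.3 in KO and 78.2 in the saline library (-2.06), its partner Itgb4 at 109 CPM in WT, 156 in KO and 71.8 after saline (-1.75) and Col17a1 at 518 CPM in WT, 734 in KO and 368 with saline (-1.63). Type IV collagen chains, the network of the membrane itself, went the other way. Col4a3 was at 44.5 CPM in WT, 30.1 in KO and 171 in the saline library (1.87, interval 1.84 to 1.91), Col4a4 at 45.4 CPM in WT, 32.1 in KO and 152 after saline (1.61) and Col4a6 at 13.5 CPM in WT, 16.5 in KO and 81.1 with saline (1.67). Col4a1 and Col4a2 were within 2-fold, each at 0.50. Col18a1, the source of endostatin, was at 5.87 CPM in WT, 11 in KO and 93.8 in the saline library, with 2.46 (interval 2.41 to 2.51).

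Most fibrillar stromal collagens were lower in KO_PBS than in KO. Of 16 stromal collagens 9 were lower, 1 higher and 6 within 2-fold, with a median of -1.18 (-0.55 uncentred). The fibrillar Col5a3 and Col11a1 were within 2-fold at -0.98 and -0.45 (0.18 uncentred for the latter). Col1a1, of the main stromal fibril, was at 217 CPM in WT, 928 in KO and 429 after saline, with a ratio of -1.74 (interval -1.75 to -1.73). Col5a1, whose product sets fibril diameter, was at 29.8 CPM in WT, 97.3 in KO and 41.7 with saline, with -1.85 (interval -1.89 to -1.82), and Col3a1 at 60.6 CPM in WT, 224 in KO and 108 in the saline library, with -1.69. Col1a1, Col5a1 and Col3a1 were above their WT level in KO and lay between WT and KO in KO_PBS. Centred within bins of the WT level, Col1a1 was at -1.04 and Col5a1 at -1.32. Col3a1 (-0.99), Col1a2 (-0.74), Col6a1 (-0.91), Col6a2 (-0.85), Col6a3 (-0.79) and Col12a1 (-0.33) then came within 2-fold. The type VIII chains, built by endothelium into Descemet's membrane, differed. Col8a2 was at 62.3 CPM in WT, 58.1 in KO and 314 after saline, with 1.80 (interval 1.78 to 1.83), and Col8a1 at 40.7 CPM in WT, 88.5 in KO and 252 with saline, with 0.88, within 2-fold.

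**Figure D5:**
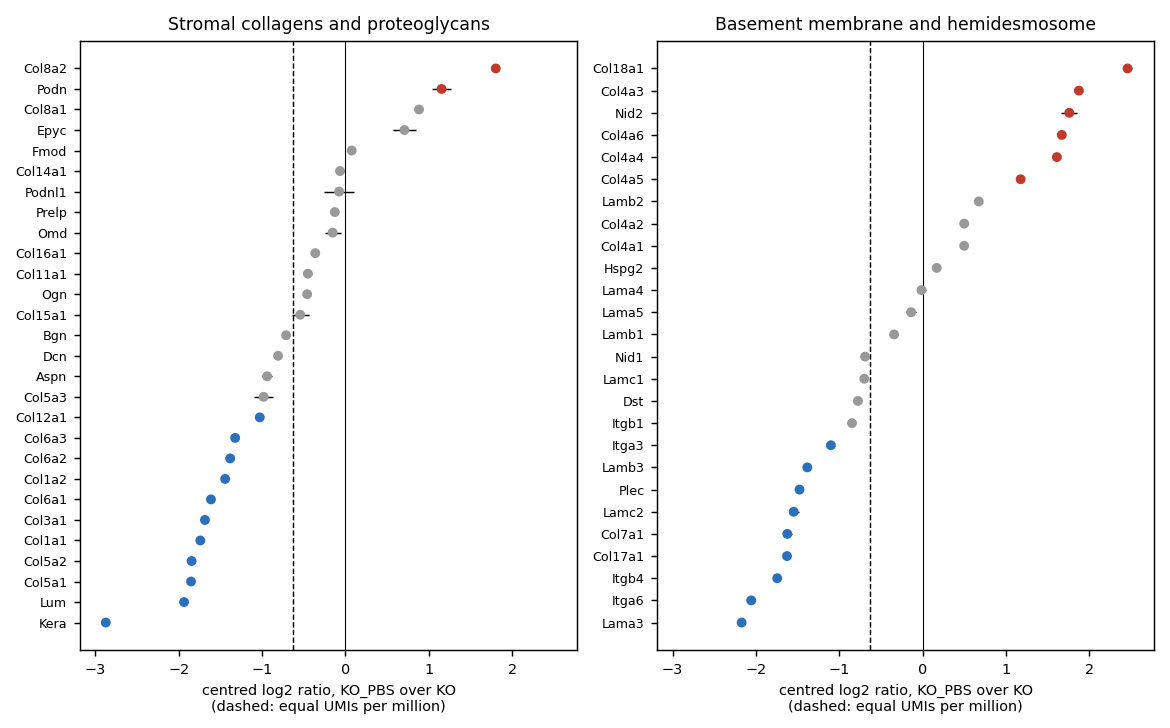
Centred log2 ratio of KO_PBS to KO (horizontal axis) for stromal collagens and leucine-rich proteoglycans (left) and basement membrane and hemidesmosome genes (right), with exact 95% intervals that cover counting error only. The solid line is the median of all genes and the dashed line equal CPM. Kera (-2.88) and Lum (-1.94) lie lowest on the left and Lama3 (-2.17) on the right, while Col8a2 (1.80), Col4a3 (1.87) and Col18a1 (2.46) lie highest.

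Keratocyte proteoglycans, which space the fibrils, were uneven. Kera, keratocan, was at 48.4 CPM in WT, 156 in KO and 32.9 in the saline library, with a ratio of -2.88 (interval -2.91 to -2.84), and so lay below its WT CPM in KO_PBS. Lum, lumican, was at 94.4 CPM in WT, 385 in KO and 156 after saline, with -1.94 (interval -1.96 to -1.92). Dcn, decorin, was within 2-fold at 419 CPM in WT, 952 in KO and 841 with saline (-0.81), as were Bgn, Ogn, Fmod and 5 others, and Podn was higher at 1.15. The median of these 12 genes, -0.31, was 0.32 uncentred. Among other keratocyte genes Thbs2 was lower at 16.8 CPM in WT, 99.3 in KO and 31.1 in the saline library (-2.30) and Angptl7 at 88.1 CPM in WT, 119.7 in KO and 68.8 after saline (-1.43). Ptgds, a prostaglandin D synthase that keratocytes share with retinal pigment epithelium, was higher at 539 CPM in WT, 133 in KO and 4145 with saline, with 4.33 (interval 4.32 to 4.35), and pigment epithelium genes were higher beside it.

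Fibrosis genes also split. Over 27 genes 5 were higher, 8 lower and 14 within 2-fold, with a median of -0.51 that was 0.12 uncentred. Some matrix and crosslinking members were lower: Tnc, tenascin C, was at 4.19 CPM in WT, 40.1 in KO and 11.9 in the saline library (-2.39), Lox, lysyl oxidase, at 3.5 CPM in WT, 43.1 in KO and 15.8 after saline (-2.08) and Fn1, fibronectin, at 47.7 CPM in WT, 162 in KO and 90.9 with saline (-1.47). Loxl2, another crosslinking enzyme, was within 2-fold at 9.35 CPM in KO and 27.1 in KO_PBS (0.91, or 1.54 uncentred). Tgfbi, keratoepithelin, was at 403 CPM in WT, 731 in KO and 207 in the saline library, with -2.45 (interval -2.47 to -2.44). The contractile genes Acta2, Tagln and Cnn1 were higher. Acta2, smooth muscle actin, was at 33.8 CPM in WT, 20.4 in KO and 300.04 with saline, with a ratio of 3.25 (interval 3.21 to 3.29), and Tagln at 17.2 CPM in WT, 10.6 in KO and 130.3 after saline, with 3.00. Skeletal muscle and red cell genes were also higher in KO_PBS, and their part in this result was not tested. The ligand genes differed, with Tgfb1 at 23.6 CPM in WT, 43.3 in KO and 33.5 with saline (-0.37 uncentred) and Tgfb2 at 10.7 CPM in WT, 14.5 in KO and 85.5 in the saline library (2.56 uncentred).

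Interferon-response genes were mostly near equal CPM in both knockouts. Cxcl9, a chemokine that interferon gamma induces and that calls in T cells, was at 0.359 CPM in WT, 203 in KO and 290.3 after saline, with a centred ratio of -0.12 (interval -0.13 to -0.10). Cxcl10, its relative, was at 0.359 CPM in WT, 51.1 in KO and 76.2 with saline, with -0.05 (interval -0.09 to -0.02). Ifng itself had low counts, at 0.00391 CPM in WT, 1.29 in KO and 2.15 in the saline library (0.11). These genes were rare in WT, and with centring within bins of the WT level Cxcl9 was at -1.43, Cxcl10 at -1.37 and Ifng at -2.70. The median of the 8 genes of this axis was then -1.40, against -0.82. The receptor and kinase genes were lower in 3 of 4 cases: Ifngr1 was at 41.4 CPM in WT, 110.2 in KO and 42.4 after saline (-2.01, interval -2.04 to -1.97), Jak1 at -1.29 and Jak2 at -1.08 (-0.66 and -0.45 uncentred), and Ifngr2 was within 2-fold. Cxcr3, the receptor for Cxcl9 and Cxcl10, was at 0.0469 CPM in WT, 6.68 in KO and 3.06 with saline, with -1.76.

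Of the signal transducers and interferon-stimulated genes, 24 of 26 were matched, and 9 were lower, none higher and 15 within 2-fold. The median was -0.78 centred and -0.15 uncentred, and the summed level was 754 CPM in WT, 3601 in KO and 3713 after saline. Irf1, a transcription factor that interferon induces, was at 85.4 CPM in WT, 159 in KO and 205 in the saline library (-0.26), Irf7 at 61.2 CPM in WT, 194 in KO and 304 after saline (0.02) and Isg15, a ubiquitin-like modifier, at 257 CPM in WT, 992 in KO and 1141 with saline (-0.43). The antiviral sensors Ifih1 and Oas3 were lower at -1.31 and -1.46 (-0.68 and -0.83 uncentred), and so was the feedback inhibitor Socs1 at -1.45 (-0.82 uncentred).

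The guanylate-binding proteins and immunity-related GTPases, which attack vacuoles of pathogens inside cells, had 18 of 19 members matched, with 7 lower, none higher and 11 within 2-fold. Their median was -0.62 centred and 0.01 uncentred, so its sign follows the scaling. Gbp2b was at 12.6 CPM in WT, 172 in KO and 166 in the saline library (-0.68), Gbp7 at 9.24 CPM in WT, 121 in KO and 157 after saline (-0.26) and Irgm1 at 12.1 CPM in WT, 135 in KO and 176 with saline (-0.25). Gbp5 was at 0.348 CPM in WT, 25.1 in KO and 48.9 in the saline library (0.33) and Iigp1 at 3.87 CPM in WT, 374 in KO and 254 after saline (-1.19). Gbp6 and Gbp10 had the lowest ratios, -3.36 and -2.36, and share exons with genes found in only one of the gene lists, so their counts may not be comparable.

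The windows upstream of Irf1 and Gbp7 are shown because both stayed near their KO level and hold motifs of the interferon pathway. The capitals mark TTCNNNGAA, the gamma-activated site (GAS), and GAAA, NN and GAAA in a row on either strand, the interferon-stimulated response element (ISRE). They span chr11:53769764-53770013 for Irf1 and chr3:142530086-142530335 for Gbp7, both on the plus strand of GRCm38.p6, from RefSeq.
Irf1: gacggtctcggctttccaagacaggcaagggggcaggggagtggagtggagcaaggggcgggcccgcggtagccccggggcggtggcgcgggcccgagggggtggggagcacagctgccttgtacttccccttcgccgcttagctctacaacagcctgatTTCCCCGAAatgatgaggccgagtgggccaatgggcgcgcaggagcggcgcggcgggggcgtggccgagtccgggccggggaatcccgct
Gbp7: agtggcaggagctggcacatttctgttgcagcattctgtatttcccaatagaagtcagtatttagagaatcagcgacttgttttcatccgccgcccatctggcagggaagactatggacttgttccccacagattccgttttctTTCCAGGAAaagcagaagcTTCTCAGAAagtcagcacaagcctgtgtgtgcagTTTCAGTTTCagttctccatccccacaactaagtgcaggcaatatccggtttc
Irf1 has 1 GAS motif, 90 bases before the start. Gbp7 has 2, at 106 and 87 bases, and an ISRE on the opposite strand at 53. The ISRE letters were in 10 of 11 GTPase windows and 10 of 20 windows of the interferon-stimulated list, against 3.01% of all 19621. The GAS letters were in 6 of 11 and 6 of 20, against 6.83%. In the interferon gamma axis, class II and class I lists ISRE was in 1 of 8, 1 of 9 and 3 of 16 windows and GAS in 1 of 8, 1 of 9 and 2 of 16.

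Antigen presentation genes were likewise near equal CPM. All 12 class II genes reached the minimum, and 10 were within 2-fold, 2 lower and none higher, with a median of -0.74 (-0.11 uncentred). Cd74, the invariant chain, was at 66 CPM in WT, 2120.3 in KO and 1913 with saline, with a ratio of -0.78 (interval -0.78 to -0.77). H2-Aa was at 20.7 CPM in WT, 613 in KO and 703 in the saline library (-0.43) and its partner H2-Ab1 at 22.9 CPM in WT, 697 in KO and 531 after saline (-1.02), just past the limit. Ciita, the class II transactivator, was at 0.649 CPM in WT, 23.7 in KO and 33.5 with saline (-0.13). The class I list had 8 of 18 lower, none higher and 10 within 2-fold, with a median of -0.99 (-0.36 uncentred). B2m, the shared light chain, was at 118 CPM in WT, 1777 in KO and 2089.8 in the saline library (-0.40, interval -0.40 to -0.39), whereas the heavy chains H2-K1 and H2-D1 were lower at -1.31 and -1.25 (-0.68 and -0.62 uncentred). The 3 immunoproteasome subunits were lower, from -1.34 to -1.23, or from -0.71 to -0.60 uncentred.

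The distance between list medians is the same under any single scaling factor. Taken from the class II median, the median of the constant immunoglobulin genes was 7.72-fold lower, that of neutrophil genes 5.14-fold and that of acute-phase genes 1.93-fold. The interferon-stimulated list differed from class II by 1.03-fold, the GTPases by 1.09-fold, macrophage genes by 1.02-fold and T cell genes by 1.12-fold. With centring within bins of the WT level, which is not a single factor, the class II median was still -0.74, but that of the GTPases was -1.09, that of the interferon gamma axis -1.40, that of checkpoint genes -2.16 and that of T cell genes -2.20. Single class II members spread with this centring, from -0.032 for H2-Aa to -4.23 for H2-Eb2. H2-Ob (-3.14), H2-Oa (-2.91), H2-DMb2 (-1.33) and H2-DMb1 (-1.20) were beyond -1 as well.

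T cell genes lay near equal CPM as a list. Of 20, 6 were lower, none higher and 14 within 2-fold, with a median of -0.58 that was 0.05 uncentred and -2.20 with centring within bins of the WT level. The CD3 chain genes Cd3g and Cd3d were lower at -1.60 and -1.31 (-0.97 and -0.68 uncentred), and Cd3e was at 0.367 CPM in WT, 16.5 in KO and 14.3 after saline (-0.83). Cd4, of helper T cells, was at 0.203 CPM in WT, 7.35 in KO and 17.3 with saline (0.60), and Cd8a at 0.0352 CPM in WT, 3 in KO and 4.26 in the saline library (-0.13). The cytotoxic granule genes Gzma and Nkg7 were within 2-fold, and Gzmb was lower at -1.30 (-0.67 uncentred). Il7r, of naive and memory cells, was lower at 0.621 CPM in WT, 22 in KO and 7.34 after saline (-2.21). Among checkpoint genes Cd274, which encodes PD-L1, was at 30.4 CPM in WT, 69.4 in KO and 126 with saline (0.23), and its receptor Pdcd1 at 0.121 CPM in WT, 5.65 in KO and 3.67 in the saline library (-1.25). Havcr2 was lower at -2.03 and Lag3 within 2-fold at 0.76.

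Macrophage and dendritic cell genes showed 5 of 16 lower, none higher and 11 within 2-fold, with a median of -0.72 (-0.09 uncentred), and sums of 131 CPM in WT, 1565 in KO and 1511 after saline. Lyz2, lysozyme, was at 39.6 CPM in WT, 540.3 in KO and 541 after saline (-0.63), and Csf1r, the receptor for their growth factor, at 2.34 CPM in WT, 27.6 in KO and 42 with saline (-0.03). The complement genes C1qa and C1qb, encoding chains of 1 complex, stood apart: C1qa was at 20.3 CPM in WT, 324 in KO and 403 in the saline library (-0.32) and C1qb at 13.8 CPM in WT, 236 in KO and 149 after saline (-1.29). Mrc1, of tissue-repair macrophages, was lower at -1.19 (-0.56 uncentred).

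Chemokines outside the CXCR3 axis were split, with 8 of 27 lower, 2 higher and 17 within 2-fold. Ccl19, which guides T cells and dendritic cells into lymphoid tissue, was at 1.47 CPM in WT, 85.5 in KO and 3.31 with saline, with a ratio of -5.32 (interval -5.44 to -5.20). Ccl8, an attractant of monocytes, was at 4.08 CPM in WT, 483 in KO and 261 in the saline library, with -1.52. Cxcl13, the B cell chemokine, was at 0.473 CPM in WT, 55.6 in KO and 46.4 after saline (-0.89) and Ccl21a at 6.27 CPM in WT, 17 in KO and 29.9 with saline (0.18), both within 2-fold. Centred within bins of the WT level, Cxcl13 was at -1.62 and Ccl21a at 0.24. Of other cytokines, Tnf was higher at 1.45 CPM in WT, 3.39 in KO and 16.3 in the saline library (1.64, interval 1.54 to 1.74), Osmr, the receptor for oncostatin M, was lower at 32.5 CPM in WT, 108 in KO and 39.5 after saline (-2.09), and Il6 was within 2-fold at 0.894 and 1.56 CPM. With the same centring within bins Tnf was at 1.30, Osmr at -1.55 and Il6 at -2.63. The complement list had 6 of 21 higher, 2 lower and 13 within 2-fold, with C3 at 4.52 CPM in WT, 141 in KO and 163 with saline (-0.43) and C4b at 4.25 CPM in WT, 38.6 in KO and 228 in the saline library (1.93). Its shares, 28.6% higher and 9.52% lower, were near the 29.9% and 12.9% over all genes, and its median was -0.02.

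Genes of other eye tissues were higher in the KO_PBS library by large factors. All 27 measured lens genes were called higher, or 25 with centring within bins of the WT level, where Pitx3 turned to -0.17. The median was 4.24, and their sum was 1059 CPM in WT, 401 in KO and 13740.3 after saline. Crybb2, a crystallin of the lens fibre, was at 107 CPM in WT, 54.5 in KO and 2571 after saline, with a ratio of 4.93 (interval 4.91 to 4.95), and Cryge at 13.6 CPM in WT, 5.8 in KO and 651 with saline, with 6.18 (interval 6.12 to 6.25). At least 1 UMI of Cryaa was in 14.1% of KO barcodes and 93.0% of KO_PBS barcodes. In the 25% of KO_PBS barcodes with the most UMIs the lens genes summed to 11638 CPM, and in the 25% with the fewest to 16328.

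Photoreceptor genes were higher in 21 of 22 cases, with a median of 4.49. Gnat1, rod transducin, was at 16.2 CPM in WT, 6.09 in KO and 366 in the saline library, with a ratio of 5.28 (interval 5.21 to 5.34). Of 16 pigment epithelium and visual cycle genes 10 were higher and 6 within 2-fold, with Rpe65 at 3.05 CPM in WT, 1.05 in KO and 32.2 after saline (4.30). Melanin genes were higher in 11 of 12 cases: Pmel was at 81 CPM in WT, 20.2 in KO and 1192 with saline (5.25, interval 5.22 to 5.29) and Dct at 339 CPM in WT, 95.4 in KO and 2033 in the saline library (3.78), while Kit was lower at -1.73. By summed level the lens, photoreceptor and melanin lists were lower in KO than in WT and highest in KO_PBS. Melanin genes summed to 701 CPM in WT, 309 in KO and 4633 after saline, and pigment epithelium genes to 357, 379 and 1339.7.

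Most muscle and red cell genes were higher as well. Of 17 skeletal muscle genes 15 were higher, with Ckm, muscle creatine kinase, at 1.38 CPM in WT, 1.81 in KO and 40.2 after saline (3.84). Of 8 red cell genes 6 were higher, with the globin Hbb-bs at 29.7 CPM in WT, 108 in KO and 611 with saline (1.87). Of 18 lacrimal, salivary and meibomian genes 9 reached the minimum, with 6 higher, 1 lower and 2 within 2-fold. The muscle genes Myh4, Myh7 and Myh13, the red cell gene Slc4a1 and the gland gene Smr2 had under 50 UMIs in KO. They reached the minimum only with their KO_PBS counts, so their calls describe and do not support a direction. The same holds for any other higher list member under 50 UMIs in KO. The salivary and lacrimal gene Prb1 was at 6.14 CPM in WT, 0.467 in KO and 80.8 in the saline library, with 6.81 (interval 6.58 to 7.04). Bhlha15, a transcription factor of acinar cells, was lower at -2.12, and Lpo and Awat2, which were called higher, turned to -0.88 and -0.011 when centred within bins of the WT level. The secreted mucins Muc5ac and Muc5b of goblet cells were higher at low levels, 1.75 CPM in WT, 0.29 in KO and 1.97 after saline and 0.539 CPM in WT, 0.0854 in KO and 0.635 with saline. Muc4, a membrane mucin of the ocular surface, was within 2-fold at 327 CPM in WT, 454 in KO and 373 in the saline library (-0.91), and Muc16 was higher at 0.649 CPM in WT, 0.322 in KO and 4.66 after saline (3.23). The dissection is not described beyond corneas having been taken, and whether other tissue came with them was not tested.

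Corneal endothelium and pump genes were higher in 10 of 18 cases, with 1 lower and 7 within 2-fold, and a median of 1.18. Slc4a11, a transporter needed for endothelial water balance, was at 43.2 CPM in WT, 44.2 in KO and 158 with saline, with a ratio of 1.21 (interval 1.18 to 1.23), and the bicarbonate cotransporter Slc4a4 at 53.9 CPM in WT, 88.5 in KO and 384 in the saline library, with 1.49. Atp1b1, a sodium pump subunit, was at 34.6 CPM in WT, 35.4 in KO and 209.7 after saline (1.94). Some of these genes, Car2, Slc4a4 and Ptgds among them, are also expressed in other eye tissues whose genes were higher, and the part of those tissues in this result was not tested.

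Osmotic and water transport genes gave no common direction, with 3 of 20 higher, 7 lower and 10 within 2-fold, and a median of -0.52 that was 0.11 uncentred. Nfat5, the master factor of the response to high salt, was at 47.9 CPM in WT, 131 in KO and 163 with saline (-0.32). Its target Slc6a6, a taurine transporter, was at 197 CPM in WT, 243 in KO and 562 in the saline library (0.58), and another, Akr1b3, aldose reductase, at 132 CPM in WT, 146 in KO and 138 after saline (-0.71), both within 2-fold. The betaine transporter Slc6a12 was higher at 0.102 CPM in WT, 0.179 in KO and 5.67 with saline (4.35, interval 3.99 to 4.74). The chaperone genes Hspa1a and Hspa1b were lower at -1.89 and -1.62 (-0.99 uncentred).

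Nerve and vessel genes completed the comparison. Of 27 neurotrophin and guidance genes 7 were higher, 5 lower and 15 within 2-fold, and the median of -0.17 was 0.46 uncentred. The neurotrophin gene Ntf3 was lower at 41.2 CPM in WT, 44.8 in KO and 22.5 in the saline library (-1.62), while Bdnf was higher at 1.03 CPM in WT, 1.09 in KO and 6.69 after saline (1.99). The repellent Slit2 and its receptor Robo1 were higher at 1.27 and 1.58. Of 12 Schwann cell genes 4 were higher, 1 lower and 7 within 2-fold, with a median of 0.22, and the share higher was near the 29.9% over all genes. Erbb3 was the lower member at -1.27 (-0.64 uncentred), and the higher ones included Sox10 at 2.05 CPM in WT, 2.07 in KO and 14.6 with saline (2.19), a gene that melanocytes share. Of 20 vessel genes 5 were higher, none lower and 15 within 2-fold, with a median of 0.49. The share higher was 25% here and 25.9% among neurotrophin and guidance genes, both below the 29.9% over all genes. Pecam1, of blood vessel lining, was at 3.53 CPM in WT, 16.9 in KO and 30 in the saline library (0.20), and the lymphatic receptor Flt4 at 0.606 CPM in WT, 2.09 in KO and 7 after saline (1.12). Flt4 was at 0.39 when centred within bins of the WT level.

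Over all genes in the top bin of the WT level, 1.5% were called higher and 28.4% lower. Called genes at 50 CPM or more in KO or KO_PBS were counted without mitochondrial, ribosomal protein, immunoglobulin variable and overlapping genes. Of these, 278 were higher and 778 lower. The 10 with the largest centred ratios upward were Bc1, Prb1, Cryge, Crygf, Gm10801, Gm26612, Crygd, Prpmp5, Gnat1 and Pmel. Bc1, a small non-coding RNA of neurons, was at 0.926 CPM in WT, 0.823 in KO and 342 with saline, with a ratio of 8.07 (interval 7.90 to 8.24). The 10 with the largest ratios downward were 1700054A03Rik, 1500015L24Rik, Slpi, Ighg2c, Atp6v0c, 5830416I19Rik, Gm15564, Gm48099, AY036118 and Ighg2b. AY036118, one of the most abundant features of the WT library, was at 35882 CPM in WT, 19408 in KO and 512 in the saline library, with -5.87 (interval -5.88 to -5.86). Atp6v0c, a proton pump subunit of every cell, was at 229 CPM in WT, 262 in KO and 2.11 after saline, and the part of the different gene lists in this value was not tested.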

How the data were processed

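Nuclei of whole mouse corneas were profiled in 1 droplet library per group, with version 3 chemistry of 10x Genomics per the labels. The deposited matrices hold raw UMI counts for each gene in each barcode. The file headers name Cell Ranger 7.0.1, and mm10 is the build per the submitters' processing notes. The annotation, any use of intronic reads and how barcodes were filtered are not given in the sources used here. The WT and KO lists hold 32285 genes each and the KO_PBS list 31053. The 30406 IDs shared by KO and KO_PBS held 99.6% and 99.3% of their UMIs, and 597 of them carry another symbol in the KO_PBS list.

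All barcodes were summed, without filtering or a doublet caller. Ratios were centred as stated, with exact (Clopper-Pearson) intervals of the ratio and exact Poisson intervals of levels at 95%. Genes under 50 UMIs (7990) were left out of calls. Members, lists and subgroups were chosen with earlier results of these data known. Any list member could be named for its role, and outside the lists the 10 largest called ratios each way at 50 CPM or more, without mitochondrial, ribosomal protein, immunoglobulin variable and overlapping genes. The comparison was tested on simulated data, drawn from the KO profile with known changes and counting error only. These held neither the dependence of the ratio on level nor the different gene lists. Exon overlap and length came from GENCODE M21, and promoters from RefSeq. Values of 8 single genes are not reported here. Listed symbols without a match were Gbp11, Mx1, Mx2, Cxcl11, C4a, Mmp1a, Muc19, Prr4, Lim2, Rn7sk and Rpph1. Scripts ran in scipy 1.17.1, numpy 2.4.6 and pandas 2.3.3 under python 3.11.15, with matplotlib 3.10.9 for plots and edgeR 4.0.16 for scaling factors only. Because 1 library a side leaves no replicates, no difference can be set against biological spread.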

Additional observations from a re-analysis of the deposited data

Results flagged for a closer look

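Signal was present in genes that the comparison cannot use because only one of the gene lists holds them. The 1879 genes listed for KO and not for KO_PBS held 0.367% of the KO UMIs, led by Ndufb1-ps, Gas5 and Tmem134. The 647 genes listed for KO_PBS and not for KO held 0.654% of its UMIs, of which Gm26870 alone gave 0.469%. Exons of 477 shared genes overlap such genes, and the 424 of them that reached 50 UMIs had a median centred ratio of -0.61, against 0.01 for the genes without overlap. Members concerned are Gbp6, Gbp10, Cfb, C2, S100a3, S100a4, Cryga, Itgam, Cd247, Slc5a3, Lrrc8a, Hsp90b1, Tuba1b and Tsix, and the part of the overlap in their ratios was not tested.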

How the results depend on the processing

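Of the 18 list medians beyond 1 in size, all 18 kept their sign under each of 13 alternatives, and of the 36 smaller ones 15 did. Of 436 called or equally large member ratios, 427 kept their sign. Alternatives that only replace the shift move every ratio by the same amount, less than 1. They could not turn a value beyond 1 in size, so for such values these counts check only the other alternatives. Without centring 1064 genes were lower. With no UMI minimum the shift was 0.98 and 5803 genes were lower, and with at least 500 UMIs the shift was 0.38 with 3241 higher and 1411 lower. A total without immunoglobulin, mitochondrial, ribosomal, crystallin and haemoglobin genes gave a shift of 0.59, the 25% of barcodes with the most UMIs 0.59, and the 25% with the fewest 0.34 with 3966 higher. The TMM factors of edgeR gave a shift of 0.69. Alternatives chosen after seeing the data were centring within bins of the WT level, with 4382 higher, and centring on the 5000 genes with the most UMIs, with a shift of 0.072 and 1170 lower. Within bins of the WT level these members beyond 1 in size changed sign: Lpo (-0.88), Pitx3 (-0.17), Muc2 (-1.41), Chst1 (-0.25), Tgm3 (-0.035), Awat2 (-0.011), Lce3c (-0.27), Klk6 (-0.71) and Lce3e (-0.088). Smaller ratios turned as well, among them Ighd (-2.40), Lag3 (-1.62), Fcer2a (-1.44) and Cd4 (-0.71). The causes of these differences were not tested. No paired analysis was possible because each group is 1 library. Depth limits genes under 50 UMIs, and no interval covers differences between mice.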

Other observations

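Antioxidant genes not described above were mostly near their KO level, with 3 of 23 higher, 4 lower and 16 within 2-fold and a median of -0.18 that was 0.45 uncentred. Gpx3, a secreted glutathione peroxidase, was higher at 5.82 CPM in WT, 6.97 in KO and 188 after saline (4.12, interval 4.06 to 4.18). Txn1, thioredoxin, was lower at 948 CPM in WT, 828 in KO and 342 with saline (-1.90), and the metallothionein gene Mt1 was within 2-fold at 932 CPM in WT, 1434 in KO and 1645 in the saline library (-0.43). Nfe2l2, which encodes the NRF2 factor, was at -0.96, within 2-fold.

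Of 19 heat shock and unfolded protein genes 4 were lower, none higher and 15 within 2-fold. Hspa5, the main chaperone of the endoplasmic reticulum, was at 195 CPM in WT, 409 in KO and 280.3 after saline (-1.17), and Pdia6 at 136 CPM in WT, 157 in KO and 74.1 with saline (-1.72), both lower beside Xbp1. The interleukin-1 family had 3 of 17 lower, none higher and 14 within 2-fold. Il1b was at 0.735 CPM in WT, 27.8 in KO and 12.8 in the saline library (-1.75), and the alarmin Il33 at 8.58 CPM in WT, 16.1 in KO and 35.8 after saline (0.52). Of 98 measured ribosomal protein genes 34 were lower, 9 higher and 55 within 2-fold, with sums of 193373 CPM in WT, 147854 in KO and 121621 after saline. Malat1, a nuclear RNA, was at 10150.3 CPM in WT, 5798 in KO and 11281 with saline (0.33).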
